A study of Mus musculus with 36 samples.

Results

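The p53 target and apoptosis genes described here were 10 genes taken by symbol from the 19879 genes listed in the deposited tables. They were Mdm2, Ccng1, Trp53inp1, Phlda3, Bbc3, Bax, Pmaip1, Bcl2l11, Mcl1 and Bcl2a1b. All 10 were found, each was measured in all 36 libraries, and each passed the filter on low values in every comparison. The cells were BV-2, an immortalised mouse microglial line, sequenced in 12 groups of 3 libraries each. The groups were 6 treatments at exposure times of 4 h and 24 h. Cells of 2 treatments received only a vehicle, DMSO or ethanol (EtOH). The other 4 treatments received 600 ng/mL of lipopolysaccharide (LPS), a component of the bacterial wall that activates microglia. LPS was given by itself, with 1 of 2 fumarates at 30 µM each, dimethyl fumarate (DMF) and monomethyl fumarate (MMF), or with the plant cannabinoid cannabidiol (CBD) at 6 µM. Vehicles made up 0.2%, DMSO for both fumarates and EtOH for CBD, and the labels did not state which vehicle the LPS groups received. Every group came from this single line, kept in medium with little serum during exposure, so the data describe 1 culture model and no tissue. LPS groups carried replicate numbers 1 to 3 and vehicle groups 4 to 6. In comparisons of LPS with a vehicle, an effect of LPS cannot be told apart from any difference between these sets of libraries. The study's methods describe the sequencing experiments as repeated, and the labels did not say whether the libraries came from separate cultures, so p-values measure the spread between these libraries, which may be technical.

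The transcription factor p53 is kept low by the ubiquitin ligase Mdm2, which is itself a p53 target, and stress that frees p53 raises genes of cell cycle arrest, repair and cell death. The BCL2 family then sets the threshold for mitochondrial apoptosis. Its BH3-only members, such as the products of Bbc3 (PUMA), Pmaip1 (NOXA) and Bcl2l11 (BIM), oppose the survival proteins encoded by Mcl1 and Bcl2a1b and thereby release Bax, which permeabilises the mitochondrial membrane. Several of these genes also answer to other inputs: Bcl2l11 is a known target of FOXO factors and of stress kinases, and the Bcl2a1 genes are known targets of NF-kB.

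Promoter sequences were printed for the genes whose levels differed most or that carried a p53 decamer, so that the letters can be read beside the counts. RefSeq promoters (build GRCm38.p6) were matched for 8 of the 10 genes, at 11 start sites. Trp53inp1 was not matched, and promoters on the chromosome that holds Pmaip1 were left out of the search for members. The 250 bases before each start were searched on both strands for 6 motifs: the p53 consensus decamer and the NF-kB consensus (both by name), FOXO (GTAAACA), AP-1 (TGANTCA), the antioxidant response element (TGACNNNGC) and the CHOP-ATF4 element (TGATGNAA). Capitals mark the matches, 5′ to 3′ on the gene's own strand. The first 3 sequences hold the p53 decamer, the fourth a FOXO match, and the last an AP-1 and a CHOP-ATF4 match. The decamer is only a part of a full p53 consensus site, and full sites were not searched for. Mdm2 lies at chr10:117710759-117711008 (minus strand), Ccng1 at chr11:40755287-40755536 (minus), Bax at chr7:45466899-45467148 (minus), Bcl2l11 at chr2:128125788-128126037 (plus) and Bcl2a1b at chr9:89199023-89199272 (plus).
Mdm2: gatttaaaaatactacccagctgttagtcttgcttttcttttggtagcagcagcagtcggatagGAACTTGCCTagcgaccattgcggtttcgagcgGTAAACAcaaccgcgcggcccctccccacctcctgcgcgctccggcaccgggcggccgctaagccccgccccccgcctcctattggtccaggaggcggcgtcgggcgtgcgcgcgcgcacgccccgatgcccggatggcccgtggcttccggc
Ccng1: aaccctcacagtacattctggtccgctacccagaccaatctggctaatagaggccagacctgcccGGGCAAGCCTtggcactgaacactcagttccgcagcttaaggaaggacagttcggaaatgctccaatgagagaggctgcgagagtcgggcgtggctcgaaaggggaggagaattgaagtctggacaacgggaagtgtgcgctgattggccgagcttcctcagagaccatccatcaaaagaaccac
Bax: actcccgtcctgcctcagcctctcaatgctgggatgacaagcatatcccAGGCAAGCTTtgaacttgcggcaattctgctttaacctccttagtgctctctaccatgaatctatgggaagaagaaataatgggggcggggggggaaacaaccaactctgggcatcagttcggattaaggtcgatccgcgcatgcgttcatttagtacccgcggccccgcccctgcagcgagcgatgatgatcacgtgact
Bcl2l11: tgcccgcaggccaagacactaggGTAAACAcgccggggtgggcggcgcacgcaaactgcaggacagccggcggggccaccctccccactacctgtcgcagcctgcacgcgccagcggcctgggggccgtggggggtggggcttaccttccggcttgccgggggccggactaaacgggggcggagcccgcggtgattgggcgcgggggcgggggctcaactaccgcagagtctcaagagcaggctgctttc
Bcl2a1b: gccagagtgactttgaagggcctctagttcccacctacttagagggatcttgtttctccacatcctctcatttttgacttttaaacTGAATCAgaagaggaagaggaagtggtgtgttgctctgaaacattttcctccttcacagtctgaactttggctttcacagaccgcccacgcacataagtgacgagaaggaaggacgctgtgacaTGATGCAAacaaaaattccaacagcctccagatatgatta

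The decamer lay 186 to 177 bases before the Mdm2 start, 185 to 176 before that of Ccng1 and 201 to 192 before that of Bax. Mdm2 also held a FOXO match 153 to 147 bases before its start, and Bcl2l11 held one at 227 to 221 before the start site printed above. The window of another Bcl2l11 start site, at chr2:128127325-128127574, held none of the 6 motifs. In Bcl2a1b the AP-1 match stood at 164 to 158 and the CHOP-ATF4 match at 40 to 33. Among the start sites of Bbc3, a FOXO match at 167 to 161 and overlapping NF-kB matches between 137 and 127 were found. Mcl1 and Phlda3 held none of the 6 motifs in this window. Among all 32851 promoters of the same length, the decamer occurred in 7.13%, NF-kB in 3.9%, FOXO in 3.17%, AP-1 in 6.75%, the antioxidant response element in 10.16% and CHOP-ATF4 in 3.45%. A match describes letters in this window and is not a binding site.

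Between 14110424 and 26676607 reads were counted per library. Values below are normalised read counts, that is, whole reads recovered from the deposited tables and divided by 1 set of median-of-ratios factors over the 36 libraries. Microglial and macrophage markers were present: 9 of 12 had at least 10 counts in every library, among them Csf1r (4648 to 15483) and Ptprc (7144 to 16129). Siglech stayed at or under 2.18, the homeostatic markers P2ry12 and Tmem119 were low (medians of 43.7 and 76.3), and Cx3cr1 fell to 9.41 in 1 library. Sall1, also among the 12, was not a listed gene. Summed astrocyte markers ran from 5.68 to 28.4. Rbfox3 of neurons and Mog and Olig2 of oligodendrocytes stayed at or under 1.21, although Map2 (65.6 to 341) and Mbp (661 to 1515) were counted. Reads from mitochondrial genes took 1.25 to 1.4% in LPS+CBD at 24 h and 1.44 to 2.31% in LPS at 24 h. In the other 10 groups the share lay between 1.83 and 2.27%.

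Compared per kilobase of exon, Bax was the most abundant of the 10 genes, with a mean over the 12 groups of 2337 normalised counts per kb. Mcl1 followed at 1819, Ccng1 at 931, Mdm2 at 560, Phlda3 at 445, Pmaip1 at 269, Bbc3 at 239, Trp53inp1 at 139, Bcl2l11 at 100 and Bcl2a1b at 99.2. The range across groups was widest for the 4 least abundant genes. The highest group mean was 5.15 times the lowest for Bcl2a1b, 3.86 times for Bcl2l11, 2.92 times for Bbc3, 2.26 times for Trp53inp1 and 2.11 times for Ccng1, against 1.3 times for Bax and 1.41 times for Pmaip1. Phlda3 (1.73 times), Mcl1 (1.74 times) and Mdm2 (1.97 times) lay between.

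**Figure D1:**
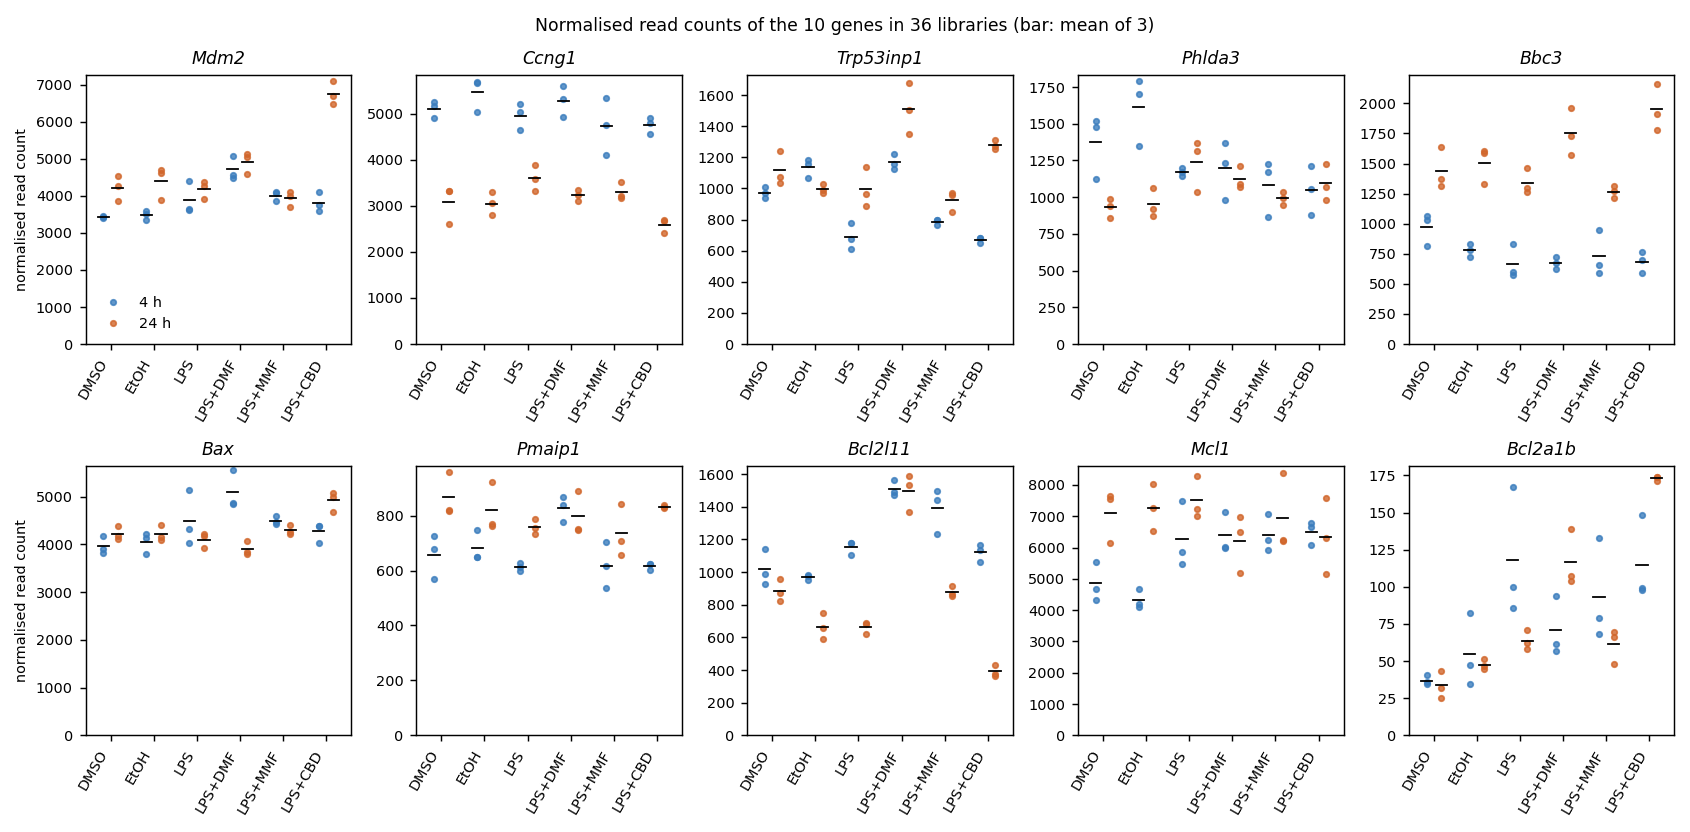
Normalised read counts (vertical axes, from 0) of the 10 genes by treatment at 4 h (blue) and 24 h (orange); each point is 1 library and each bar the mean of 3. Mdm2 and Bcl2a1b were highest, and Bcl2l11 and Ccng1 lowest, in LPS+CBD at 24 h.

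The order of the 12 groups showed where a gene stood apart. For Mdm2 only the top group was separated from its neighbour by the mean ± SD ranges: LPS+CBD at 24 h averaged 6754 ± 309 (SD, n = 3), above LPS+DMF at 24 h with 4919 ± 285. The other neighbours down to DMSO at 4 h, 3432 ± 27.1, overlapped. For Bcl2l11 the lowest group was LPS+CBD at 24 h, 391 ± 36.5, apart from LPS at 24 h with 665 ± 38.2. Its highest groups, LPS+DMF at 4 h (1510 ± 49.4), LPS+DMF at 24 h (1496 ± 117) and LPS+MMF at 4 h (1390 ± 140), overlapped in turn and stood apart from LPS at 4 h (1151 ± 42.6). For Mcl1, Phlda3 and Pmaip1 all 11 neighbouring pairs overlapped. The library numbered 2 (5 in the vehicle groups) was the highest of its group for Mcl1 and for Pmaip1 in 9 of the 12 groups, and for Phlda3 the library numbered 3 (or 6) was the highest in 9 of 12.

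The effect of LPS was assessed against each vehicle, with the same LPS libraries in both comparisons. At 4 h Trp53inp1, a p53 target that promotes autophagy and cell death, was lower with LPS than with either vehicle. The survival gene Bcl2a1b was higher than with DMSO by the test. Against DMSO, 3 of the 10 genes passed limma with Benjamini-Hochberg adjustment (adjusted p below 0.05), where 14.1% of all tested genes passed. Against EtOH 4 passed, where 10.2% of all genes did. Trp53inp1 held 780, 613 and 678 counts in the LPS libraries, 941, 1008 and 968 with DMSO and 1185, 1070 and 1157 with EtOH. Every LPS library was below every vehicle library. The log2 fold change was -0.51 (SE 0.1, adjusted p = 0.0106) against DMSO and -0.72 (SE 0.1, adjusted p = 0.0028) against EtOH.

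All other limma calls at 4 h, that of Bcl2a1b included, were made against 1 vehicle only. Bbc3 passed against DMSO only (log2 fold change -0.56, adjusted p = 0.0499), a call lost with no filter (0.0587) and by edgeR (0.0513). It held 595, 831 and 574 counts in LPS and 817, 1067 and 1030 in DMSO, where the groups overlapped. Against EtOH (783, 829 and 727) its log2 fold change was -0.24 (adjusted p = 0.332). Phlda3, which encodes an inhibitor of AKT signalling, passed against EtOH only (log2 fold change -0.45, adjusted p = 0.0281). Mcl1 also passed limma against EtOH only, at 5475, 7499 and 5864 counts in LPS against 4209, 4668 and 4100, a log2 fold change of 0.53 (adjusted p = 0.0257). Against DMSO it was 0.36 (adjusted p = 0.112, or 0.048 by DESeq2). Bcl2l11 was slightly higher against EtOH (0.25, adjusted p = 0.0357). Mdm2 (0.17 and 0.16), Ccng1, Bax and Pmaip1 did not pass against either vehicle. Leaving out 1 library at a time, the calls of Bbc3, Mcl1, Phlda3 and Bcl2l11 were lost in 3 to 5 of 6 refits, with adjusted p up to 0.174, and that of Trp53inp1 against DMSO in 2 of 6 (up to 0.0535, without LPS replicate 3 or DMSO replicate 6).

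Bcl2a1b encodes an A1 survival protein and is 1 of several near-identical copies. It held 85.8, 167 and 100.0 counts with LPS at 4 h, 34.3, 35.6 and 40.3 with DMSO, and 34.5, 82.3 and 47.3 with EtOH. The LPS libraries lay above all vehicle libraries, narrowly so for EtOH replicate 5. The log2 fold change was 1.59 (SE 0.25, adjusted p = 0.00476) against DMSO and 1.13 (SE 0.35, adjusted p = 0.0824) against EtOH. Without EtOH replicate 5 the latter was 1.46 (adjusted p = 0.0273). The coding sequence of Bcl2a1b (516 bases) differs from that of Bcl2a1d at 6 bases and from that of Bcl2a1a at 11, so the counting could have split or dropped reads among them, and the level of any 1 copy is uncertain. Bcl2a1a rose by 2.23 and Bcl2a1d by 2.10 on the log2 scale against DMSO. With the 3 copies summed, an alternative added after the data were seen, the log2 fold change was 2.00 against DMSO (adjusted p = 0.000827) and 1.66 against EtOH (adjusted p = 0.0131).

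At 24 h other genes passed. Phlda3 was higher with LPS than with either vehicle, and Bcl2a1b remained higher than with DMSO. Against DMSO 3 of 10 genes passed, where 22.7% of all genes did, and against EtOH 1 of 10, where 20.5% did. Phlda3 held 1368, 1038 and 1316 counts in LPS, 942, 861 and 990 in DMSO and 918, 875 and 1061 in EtOH. Its log2 fold changes were 0.42 (adjusted p = 0.0153) and 0.39 (adjusted p = 0.0318), the latter with overlapping libraries. Both calls depended on single libraries, with adjusted p up to 0.0784 without LPS replicate 3 and up to 0.14 against EtOH in the same refit. Bcl2a1b was 0.94 higher on the log2 scale than in DMSO (adjusted p = 0.0138; 0.0537 without DMSO replicate 5) and 0.42 higher than in EtOH (adjusted p = 0.145; 1.28 and 0.000324 with the copies summed).

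At 24 h Bcl2l11 gave different answers against the vehicles. It held 621, 683 and 690 counts in LPS, 820, 872 and 958 in DMSO and 749, 658 and 589 in EtOH. LPS was lower than DMSO (log2 fold change -0.39, adjusted p = 0.00843) but level with EtOH (0.01, 95% confidence interval -0.21 to 0.24). Between the vehicles themselves the difference was 0.41 (0.19 to 0.63), with no overlap of libraries and an adjusted p of 0.998. Between DMSO and EtOH 0 of the 10 genes passed limma at either time, where 0.0% of all genes passed at 4 h and 0.00854% at 24 h. At an unadjusted p under 0.05 there were 2 of the 10 genes at 4 h and 1 at 24 h, and 1051 and 430 of all genes. DESeq2 called 87 and 3 of all genes, and edgeR 0 and 1. With the replicate number as a block, since same-numbered vehicle libraries deviated together, 4 of the 10 passed at 4 h, where 7.65% of all genes did: Phlda3 (-0.23, adjusted p = 0.00807), Bbc3 (0.32, 0.019), Mcl1 (0.17, 0.0254) and Trp53inp1 (-0.22, 0.0333).

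**Figure D2:**
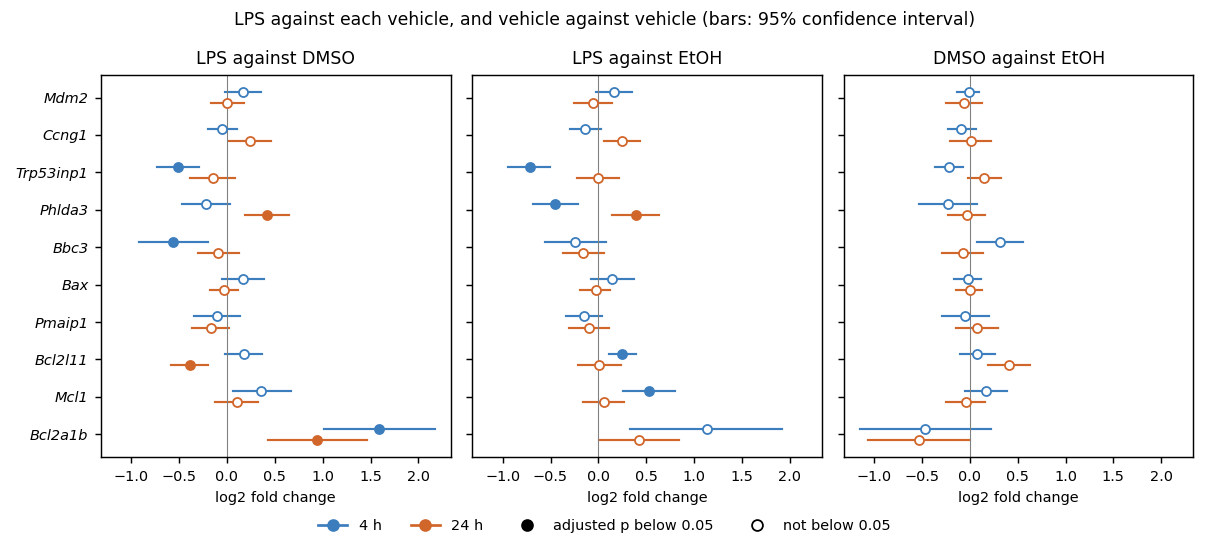
Log2 fold change (horizontal axes) of the 10 genes for LPS against DMSO, LPS against EtOH and DMSO against EtOH, at 4 h (blue) and 24 h (orange); bars are 95% confidence intervals from limma and filled points had an adjusted p below 0.05. Trp53inp1 passed against both vehicles at 4 h and Phlda3 against both at 24 h.

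Whether the LPS effect changed with time was tested as an interaction. Against DMSO 2 of the 10 genes passed, where 9.46% of all genes did, and against EtOH 2 passed, where 9.0% did. For Phlda3 the effect at 24 h exceeded that at 4 h by 0.62 on the log2 scale against DMSO (adjusted p = 0.0329) and by 0.83 against EtOH (adjusted p = 0.00815). For Bcl2l11 it was lower by 0.59 against DMSO (a difference of -0.59, adjusted p = 0.0111), and for Trp53inp1 higher by 0.72 against EtOH (adjusted p = 0.00717). Neither gene passed against the other vehicle. In refits without 1 library, the difference ran from -0.33 to -0.16 for Bcl2l11 against EtOH. For Trp53inp1 against DMSO it ran from 0.23 to 0.42. The Phlda3 difference against DMSO was lost in 9 of 12 refits that each left out 1 library, with adjusted p up to 0.0884.

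DMF added to LPS raised Trp53inp1 and Bcl2l11 at both times by the test. Pmaip1 also passed at 4 h, and Bbc3, Mdm2 and Bcl2a1b at 24 h. A call at 1 time does not by itself show a difference between the times. At 4 h, 3 of 10 genes passed against LPS alone, where 11.1% of all genes did, and at 24 h 5 of 10, where 25.1% did. Trp53inp1 held 1223, 1125 and 1157 counts with DMF at 4 h against 780, 613 and 678 with LPS, which gave a log2 fold change of 0.76 (limma SE 0.11, adjusted p = 0.00221). At 24 h it held 1352, 1679 and 1504 against 963, 1135 and 890, which gave a log2 fold change of 0.60 (limma SE 0.11, adjusted p = 0.00311). No DMF library overlapped an LPS library at either time.

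The other gene raised at both times was Bcl2l11, whose product BIM is a BH3-only activator of apoptosis. At 4 h it held 1491, 1566 and 1473 counts with DMF and 1176, 1102 and 1176 with LPS, which gave a log2 fold change of 0.39 (limma SE 0.08, adjusted p = 0.0163). At 24 h it held 1365, 1534 and 1589 with DMF and 621, 683 and 690 with LPS, which gave a log2 fold change of 1.17 (limma SE 0.08, adjusted p = 2.55e-05). The DMF libraries overlapped between the times, while the LPS libraries were all lower at 24 h. The difference between the effects was 0.78 (95% confidence interval 0.53 to 1.02, adjusted p = 0.000498). DMF was given in DMSO, and the vehicle of LPS alone was not stated. At 24 h Bcl2l11 averaged 883 counts in DMSO and 666 in EtOH, and a part of the vehicle in the DMF difference was not tested.

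The remaining DMF calls were made at 1 time each, and of these genes only Bcl2a1b, given below, passed the test of the difference between times. Pmaip1, which encodes the BH3-only protein NOXA, was higher at 4 h (869, 777 and 840 against 613, 626 and 600; log2 fold change 0.43, adjusted p = 0.015) and 0.07 at 24 h (adjusted p = 0.612). Its difference between times was -0.36 (adjusted p = 0.0596, or 0.0343 with the replicate block, where 24.2% of all genes passed). At 24 h Bbc3 was 0.38 higher (adjusted p = 0.0143) and Mdm2 0.23 higher (adjusted p = 0.0424). Both calls were lost in 3 or 4 of the 6 refits without 1 library, with adjusted p up to 0.167, as were those of Pmaip1 and Bcl2l11 at 4 h in 3 of 6, up to 0.0932. At 4 h Mdm2 held 4571, 4482 and 5090 counts with DMF against 4397, 3632 and 3654 with LPS, without overlap. It passed there only in the fit over 36 libraries (0.28, adjusted p = 0.00993). In limma interaction refits without 1 library, adjusted p ran from 0.146 to 0.427 for Bbc3 and from 0.495 to 0.996 for Mdm2. With the replicate block, Mcl1 (-0.28, adjusted p = 0.0106) and Ccng1 (-0.15, adjusted p = 0.0446) also passed at 24 h, where 39.1% of all genes did.

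For Bcl2a1b the DMF differences pointed in opposite directions at the 2 times. At 4 h it held 61.6, 93.7 and 57.0 counts with DMF against 85.8, 167 and 100.0 with LPS, a log2 fold change of -0.70 (adjusted p = 0.166). With the replicate block the adjusted p was 0.022, where 15.1% of all genes passed. The copies Bcl2a1a (-1.06, adjusted p = 0.00899) and Bcl2a1d (-1.22, adjusted p = 0.0478) were lower, and the sum of copies was -1.07 (adjusted p = 0.0369). At 24 h Bcl2a1b held 104, 139 and 107 with DMF against 62.1, 70.9 and 57.9, which gave a log2 fold change of 0.86 (limma SE 0.17, adjusted p = 0.0053). The difference between the times was 1.56 (95% confidence interval 0.82 to 2.29, adjusted p = 0.00711). Across the 10 genes 2 passed this test of the difference, Bcl2l11 and Bcl2a1b, where 16.3% of all genes did.

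**Figure D3:**
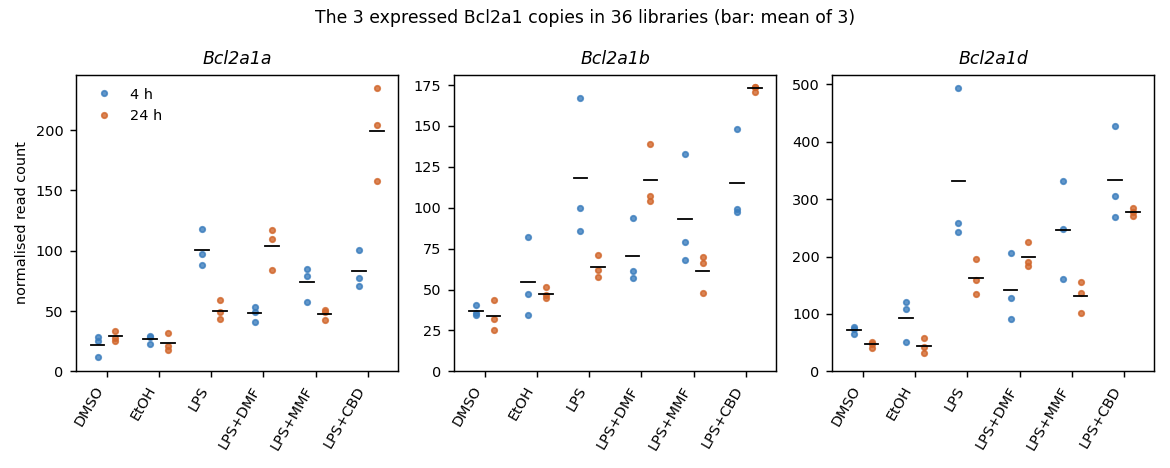
Normalised read counts (vertical axes, from 0) of Bcl2a1a, Bcl2a1b and Bcl2a1d by treatment at 4 h (blue) and 24 h (orange); points are libraries and bars means of 3. All 3 copies were higher with LPS than with either vehicle at 4 h, although not each difference passed the test, and Bcl2a1a and Bcl2a1b were highest with LPS+CBD at 24 h.

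MMF, the monomethyl ester of fumaric acid where DMF is the dimethyl ester, was used at the same dose and times. None of the 10 genes passed against LPS at 4 h, where 0.122% of all genes did, or at 24 h, where 0.0% did. At an unadjusted p under 0.05 there were 1 and 2 of the 10 genes, and 843 and 440 of all genes. At 24 h edgeR called 0 of all genes and DESeq2 17. The largest rise in fitted value at each time was that of Bcl2l11. It held 1496, 1443 and 1231 counts with MMF at 4 h and 852, 913 and 865 at 24 h, above every LPS library at both times. The log2 fold changes were 0.27 (95% confidence interval 0.07 to 0.48, adjusted p = 0.543) and 0.40 (0.23 to 0.57, adjusted p = 0.606). At 24 h same-numbered MMF and LPS libraries deviated together, and with the replicate block Bcl2l11 passed (adjusted p = 0.000521), as did Phlda3 (-0.31, adjusted p = 0.00721), where 1.78% of all genes did. DESeq2 gave an adjusted p of 0.0237 for Bcl2l11. MMF was given in DMSO, while the vehicle of LPS alone was not stated. Between the vehicles at 24 h, Bcl2l11 averaged 883 counts in DMSO and 666 in EtOH. A part of the vehicle in the MMF difference was not tested. For the change of the MMF effect between times 0 of the 10 passed, also at an unadjusted p under 0.05, where 0.0% of all genes passed, with 385 genes at an unadjusted p under 0.05 and 0 by edgeR.

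DMF and MMF were compared directly as 1 pair at each time, with p-values adjusted over all genes. At 4 h 2 of the 10 genes differed, where 8.34% of all genes did, and at 24 h 5 of 10, where 21.5% did. The diester DMF gave the higher level in each of these. Trp53inp1 was 0.56 higher with DMF at 4 h (95% confidence interval 0.37 to 0.76, adjusted p = 0.00496) and 0.70 higher at 24 h (0.50 to 0.91, adjusted p = 0.00124). Pmaip1 was 0.42 higher at 4 h (0.17 to 0.68, adjusted p = 0.0483), a call lost in 5 of 6 refits without 1 library (adjusted p up to 0.169). At 24 h Bcl2l11 was 0.77 higher (0.60 to 0.93, adjusted p = 0.000343), Bbc3 0.46 (0.27 to 0.65, adjusted p = 0.0056), Mdm2 0.32 (0.17 to 0.47, adjusted p = 0.00991; 0.0587 without LPS+DMF replicate 3) and Bcl2a1b 0.92 (0.50 to 1.34, adjusted p = 0.00917).

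At 4 h Bcl2l11 did not differ between the fumarates by the test, with a difference of 0.12 (95% confidence interval -0.10 to 0.34). Mcl1 differed by -0.01 (-0.24 to 0.22) at 4 h and by -0.16 (-0.45 to 0.14) at 24 h. For Ccng1 the interval was -0.07 to 0.39 at 4 h and -0.18 to 0.12 at 24 h. These intervals bound the difference and do not show that the compounds act alike. With the replicate block at 24 h, Bax (-0.14, adjusted p = 0.0373) and Phlda3 (0.17, adjusted p = 0.0269) also passed, where 39.8% of all genes did.

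CBD, at a lower dose than the fumarates and in another vehicle, gave no call among the 10 genes at 4 h and all 7 of its calls against LPS at 24 h. At 4 h 0 of 10 passed, also at an unadjusted p under 0.05, where 0.00875% of all genes did, that is 1 gene by limma, with 363 genes at an unadjusted p under 0.05, 1 by edgeR and 3 by DESeq2. The member log2 fold changes at 4 h ran from -0.17 (Phlda3) to 0.07 (Mcl1). At 24 h 7 of 10 passed, where 48.7% of all genes did. Mdm2, Trp53inp1, Bbc3, Bax and Bcl2a1b were higher, and Ccng1 and Bcl2l11 lower. The low mitochondrial read share given above moved with this group, and its part in these differences was not tested. The vehicle of LPS alone was not stated, and a part of the EtOH given with CBD was not tested either. In bulk libraries, fewer cells of a type and less RNA per cell cannot be told apart.

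**Figure D4:**
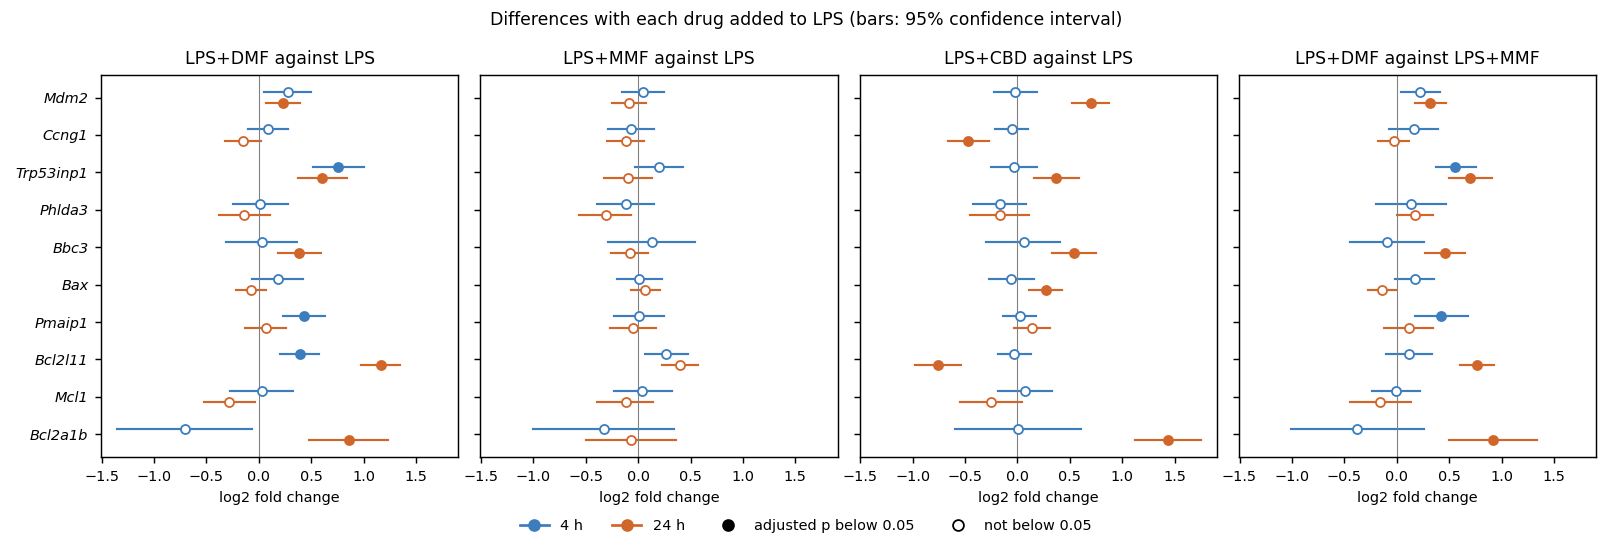
Log2 fold change (horizontal axes, 1 scale) of the 10 genes for each drug with LPS against LPS alone, and for LPS+DMF against LPS+MMF, at 4 h (blue) and 24 h (orange); bars are 95% confidence intervals from limma and filled points had an adjusted p below 0.05. Bcl2l11 at 24 h was 1.17 higher with DMF and 0.76 lower with CBD, while no MMF point was filled.

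The p53 targets split under CBD at 24 h. Mdm2 held 6480, 6693 and 7090 counts with CBD against 4280, 4367 and 3910 with LPS, which gave a log2 fold change of 0.70 (limma SE 0.08, adjusted p = 0.000116). Ccng1, a cyclin-like p53 target that recruits a phosphatase to Mdm2, held 2690, 2670 and 2415 against 3878, 3328 and 3573, which gave a log2 fold change of -0.47 (limma SE 0.09, adjusted p = 0.0018). The libraries did not overlap for either gene. The promoters printed above hold the decamer in both genes. Trp53inp1 was 0.37 higher (1251, 1313 and 1275 counts; adjusted p = 0.0104, or 0.0507 without LPS replicate 3), and Phlda3 was at -0.17 (adjusted p = 0.276).

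The BCL2 family members split as well. Among BH3-only genes Bbc3 held 1911, 1778 and 2160 counts with CBD against 1266, 1462 and 1295 with LPS, which gave a log2 fold change of 0.54 (limma SE 0.09, adjusted p = 0.00129). Bcl2l11 held 366, 433 and 374 against 621, 683 and 690, which gave a log2 fold change of -0.76 (limma SE 0.1, adjusted p = 0.000261). No library overlapped for either gene, and Pmaip1 was at 0.14 (adjusted p = 0.155). The effector Bax was 0.27 higher (adjusted p = 0.0126; 0.0529 without LPS+CBD replicate 1).

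Of the survival genes, Bcl2a1b held 174, 174 and 171 counts with CBD against 62.1, 70.9 and 57.9, which gave a log2 fold change of 1.44 (limma SE 0.14, adjusted p = 5.48e-05). Bcl2a1a (1.96) and Bcl2a1d (0.79) passed too, and the sum of copies was 1.24. Mcl1 was at -0.25 (adjusted p = 0.142, or 0.0177 with the replicate block, where 56.7% of all genes passed). Side by side, the log2 fold changes at 24 h with DMF and with CBD against the shared LPS libraries were 1.17 and -0.76 for Bcl2l11, 0.23 and 0.70 for Mdm2, and 0.86 and 1.44 for Bcl2a1b. The doses and the vehicles differed, so no comparison between these drugs was made. DMF was given in DMSO and CBD in EtOH, where Bcl2l11 averaged 883 and 666 counts at 24 h without LPS.

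The CBD effect at 24 h differed from that at 4 h in 5 of the 10 genes, where 32.0% of all genes did. The difference was 0.71 for Mdm2 (adjusted p = 0.000664), 1.43 for Bcl2a1b (adjusted p = 0.00363), 0.40 for Trp53inp1 (adjusted p = 0.0432), -0.41 for Ccng1 (adjusted p = 0.0112) and -0.73 for Bcl2l11 (adjusted p = 0.000441). The Trp53inp1 difference was lost in 10 of 12 refits without 1 library (adjusted p up to 0.112). With the replicate block Bbc3 (0.49, adjusted p = 0.0185), Bax (0.33, adjusted p = 0.0118) and Mcl1 (-0.32, adjusted p = 0.0306) joined them, where 43.5% of all genes passed.

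Time changed Bbc3 and Ccng1 in every treatment. Comparing 24 h with 4 h, 6 of 10 passed in DMSO (51.6% of all genes), 7 in EtOH (58.6%), 6 in LPS (48.9%), 5 in LPS+DMF (58.8%), 4 in LPS+MMF (49.5%) and 8 in LPS+CBD (63.2%). These shares were near the background of each comparison. Bbc3 was higher at 24 h in all 6 treatments, from 0.55 on the log2 scale in DMSO to 1.5 in LPS+CBD. Ccng1 was lower in all 6, by -0.47 in LPS to -0.89 in LPS+CBD. All 12 of these tests passed, with no overlap of libraries between times.

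The other 8 genes passed in some treatments and not in others, which does not show that their courses differed. The change of the LPS effect with time did not pass against either vehicle for Mcl1 (adjusted p = 0.345 and 0.0777), Mdm2 (0.355 and 0.305) or Pmaip1 (0.716 and 0.883). Bcl2l11 was lower at 24 h in EtOH (-0.57), LPS (-0.80), LPS+MMF (-0.67) and LPS+CBD (-1.53), all with adjusted p of 0.000517 or less, while in LPS+DMF it was at -0.02 (95% confidence interval -0.22 to 0.17). Phlda3 was lower at 24 h in DMSO (-0.57, adjusted p = 0.0016) and EtOH (-0.77, adjusted p = 0.000214), against 0.07 in LPS (adjusted p = 0.649). Mcl1 was higher at 24 h in DMSO (0.53, adjusted p = 0.00157) and EtOH (0.73, adjusted p = 4.89e-05), against 0.26 in LPS (adjusted p = 0.101; 0.0293 with the replicate block, where 52.2% of all genes passed). Mdm2 was higher in DMSO (0.27), EtOH (0.31) and LPS+CBD (0.81), with adjusted p of 0.00812 or less. Pmaip1 was higher in DMSO (0.38), LPS (0.30) and LPS+CBD (0.42), and in EtOH it was at 0.24 (adjusted p = 0.0518; 0.0444 by edgeR, 0.0294 in the fit over 36 libraries). Its calls in DMSO and LPS were each lost in 1 of 6 refits without 1 library (without DMSO 24 h replicate 5, 0.0576, and without LPS 4 h replicate 3, 0.066). Bcl2a1b was lower in LPS (-0.83) and higher in LPS+DMF (0.73) and LPS+CBD (0.60). In LPS+MMF it was at -0.57 (adjusted p = 0.0846; 0.0316 with the replicate block, where 56.0% of all genes passed). With the copies summed the call in LPS+CBD was lost (0.30, adjusted p = 0.0972) and LPS+MMF passed (-0.76, adjusted p = 0.00999). Among refits without 1 library, the Bcl2a1b call in LPS+DMF was lost in 2 of 6 (without the 24 h replicate 2, 0.068, or the 4 h replicate 3, 0.0603), in LPS in 1 (without the 24 h replicate 3, 0.0607) and in LPS+CBD in 1 (without the 4 h replicate 3, 0.0502). Bax was lower in LPS+DMF (-0.39, adjusted p = 0.00266) and higher in LPS+CBD (0.19, adjusted p = 0.0352), the latter lost in 5 of 6 refits without 1 library (up to 0.134). Trp53inp1 was higher in LPS (0.52), LPS+DMF (0.36), LPS+MMF (0.23) and LPS+CBD (0.92), and lower in EtOH (-0.21). Its calls in LPS+MMF and EtOH were lost in 5 and 4 of 6 such refits (adjusted p up to 0.177).

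**Figure D5:**
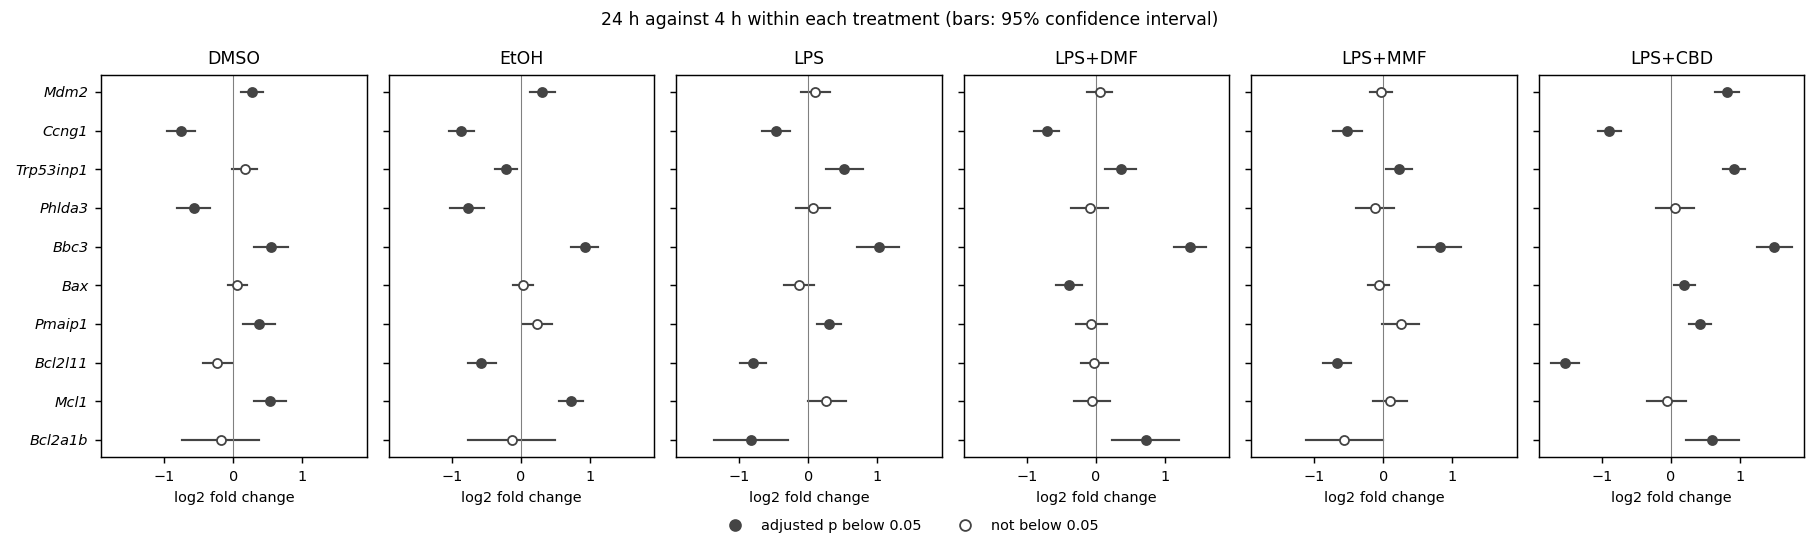
Log2 fold change of 24 h against 4 h (horizontal axes, 1 scale) for the 10 genes within each treatment; bars are 95% confidence intervals from limma and filled points had an adjusted p below 0.05. Bbc3 lay to the right and Ccng1 to the left of 0 in all 6 panels, and Bcl2l11 lay at 0 in LPS+DMF.

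The rest of the p53 pathway was followed in a list of 33 other p53 targets, of which 30 or 31 were tested in each comparison. At 24 h with CBD, 7 of 31 were higher and 11 lower than with LPS, where 48.7% of all genes passed, with a median of -0.08 beside -0.0 over all genes. The growth arrest and stress genes Gadd45a (737 against 229 counts, log2 fold change 1.65, adjusted p = 0.000118) and Gdf15 (184 against 80.5 counts, 1.28, SE 0.29) rose, and Epha2 fell (-1.27, adjusted p = 0.000238). Cdkn1a, the p21 inhibitor of cyclin-dependent kinases, was named after its values were seen: it fell from 9811 to 7166 counts (-0.46, adjusted p = 0.00855). With DMF at 24 h 8 of 31 were higher and 2 lower (25.1% of all genes passed; median 0.08), led by Gadd45a (1.12, adjusted p = 0.003), Sesn2 (0.89, adjusted p = 9.17e-05) and Plk3 (0.84, adjusted p = 0.000493). At 4 h with DMF 5 of 31 were higher and 3 lower (11.1% of all genes passed; median 0.02). The stress-induced Sesn2 rose from 1214 to 2198 counts (0.80, adjusted p = 0.0417), while the death receptor gene Fas fell from 1328 to 470 counts (-1.48, adjusted p = 0.00969) and the autophagy gene Dram1 by 1.10 (-1.10, adjusted p = 0.0199). With MMF, and with CBD at 4 h, 0 of 31 passed.

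With LPS alone this list differed from the vehicles in both directions at 4 h (5 higher and 5 lower against DMSO, where 14.1% of all genes passed, and 5 and 6 against EtOH, where 10.2% did). There were more higher than lower calls at 24 h (9 higher and 1 lower against each vehicle, where 22.7% and 20.5% of all genes passed, medians of 0.15 and 0.19). Fas rose from 201 to 1328 counts at 4 h against DMSO (2.71, adjusted p = 0.00106), and Gadd45a (1.97) and Dram1 (1.36) rose with it. At 24 h Fas (2.01), Dram1 (1.80) and Gdf15 (1.51) led. Fas, Gadd45a and Gdf15 are also known to answer to NF-kB or stress signalling.

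Among p53 and 12 regulators, all 13 tested, 5 passed against DMSO and 4 against EtOH at 4 h with LPS, where 14.1% and 10.2% of all genes did. The checkpoint kinase genes Chek2 (-0.72 and -0.69) and Atm (-0.50 and -0.54) and the DNA repair kinase gene Prkdc (-0.63 and -0.54) were lower against both. Trp53 itself was named after its values were seen. It was lower at 24 h than at 4 h in all 6 treatments, by -0.37 in DMSO to -0.68 in LPS. Its log2 fold change with LPS at 4 h was 0.32 (adjusted p = 0.0194) against DMSO and 0.26 (adjusted p = 0.0246) against EtOH, and at 24 h it was 0.19 with DMF (adjusted p = 0.0746) and -0.02 with CBD (adjusted p = 0.815) against LPS. Mdm4, which encodes a partner of Mdm2, was higher with LPS at 24 h (0.48 and 0.44). With CBD at 24 h 1 was higher and 4 lower, a smaller share than the 48.7% of all genes, including Chek1 (-0.70, adjusted p = 0.00235) and Atr (-0.63, adjusted p = 0.000148). With DMF 0 passed at 4 h (11.1% of all genes), and 1 was higher and 2 lower at 24 h (25.1%).

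Of 14 other BCL2 family genes 11 or 12 were tested. With CBD at 24 h 3 of 12 were higher and 3 lower, near the 48.7% of all genes that passed, with the BH3-only gene Bmf falling from 679 to 217 counts (-1.66, adjusted p = 0.000343) and the mitophagy gene Bnip3 by 0.86 (-0.86, adjusted p = 0.00603). Bmf also fell with DMF at 4 h (-1.15, adjusted p = 0.038), when 0 of 11 were higher and 4 lower (11.1% of all genes passed). With DMF at 24 h 2 of 12 were higher and 2 lower (25.1%), Bcl2 among the higher (0.48, adjusted p = 0.00661). With LPS at 24 h, Bnip3 (-1.06 and -1.11 against DMSO and EtOH) was among 2 genes lower and 4 genes of the list were higher in each comparison (22.7% and 20.5% of all genes passed).

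The list of 20 caspases, death receptor adaptors and inhibitors, 19 of them tested, had 2 genes higher and 0 lower with LPS at 4 h against each vehicle, where 14.1% and 10.2% of all genes passed. The caspase-8 inhibitor gene Cflar was among them (0.62, adjusted p = 0.00978; 0.65, adjusted p = 0.00669). At 24 h with LPS 7 and 6 were higher and 0 lower (22.7% and 20.5% of all genes passed), led by Birc3 (0.66 and 0.71), an NF-kB target that encodes an inhibitor of apoptosis. With CBD at 24 h 2 were higher and 7 lower, near the 48.7% of all genes that passed, with a median of -0.17. The repair gene Parp1 (-0.79, adjusted p = 0.000255) and the caspase gene Casp6 (-0.67, adjusted p = 0.0114) fell. With DMF 1 was higher and 1 lower at 4 h (11.1% of all genes passed), and 0 higher and 2 lower at 24 h (25.1%).

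For each of the 10 genes, the 2 genes with the most similar pattern of log2 group means over the 12 groups were taken from 10562 genes. All share the same libraries and size factors, so these correlations are descriptions. Ccng1 was most like Umps (Pearson r = 0.996) and Slc5a6 (0.995), Mdm2 like Dctn2 (0.992) and Tmem120a (0.988), and Bbc3 like Nedd9 and Ift172 (0.983 each). Pmaip1 was most like Smyd4 (0.958) and Tanc2 (0.94), Bcl2l11 like Tut1 (0.954) and Eif4g3 (0.951), Bax like Hsd17b12 (0.951) and Ociad1 (0.938), and one of the pair for Mcl1 was Fbxw11 (0.925). Bcl2a1b was most like its copy Bcl2a1a (0.959), with which it may share reads, and P2ry10b (0.958). Phlda3 was most like Zmat3 (0.874), itself a p53 target, and Lrrk1 (0.861), and Trp53inp1 like Stx1a (0.887) and Mfsd6 (0.877). Between members the correlation of Ccng1 and Bbc3 was -0.933.

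In the files' build, GRCm39, the genes lie at chromosome 10, 117524780 to 117546663 (Mdm2), chromosome 11, 40639379 to 40646138 (Ccng1), chromosome 4, 11156431 to 11174379 (Trp53inp1), chromosome 1, 135693857 to 135696874 (Phlda3), and chromosome 7, 16042318 to 16052130 (Bbc3) and 45111121 to 45116322 (Bax). Bcl2l11 lies on chromosome 2 at 127967958 to 128004467, Mcl1 on chromosome 3 at 95566099 to 95570487 and Bcl2a1b on chromosome 9 at 89081262 to 89089880. The position of Pmaip1 is not reported here. All 10 are protein coding. Whether counting used strand is not given in the sources used here, and in the GENCODE annotation exons of Mdm2, Ccng1, Bax, Bcl2l11 and Bcl2a1b overlap other gene models, so reads there could not be assigned with certainty. Ccng1 overlaps the protein-coding gene Nudcd2 on the other strand.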

How the data were processed

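Total RNA of BV-2 cells was sequenced in 36 libraries, 12 groups of 3. Per the submitters' processing notes the authors used FastQC 0.12.1, cutadapt 4.4, Trimmomatic 0.39, HISAT2 2.2.1, HTSeq 2.0.3, R 4.3.1 and DESeq2 1.40.2 with build GRCm39. Whether counting used strand is not given in the sources used here. The authors deposited 30 comparison tables with 180 library columns of normalized counts, a signal in read counts divided by size factors. The tables' columns of fold changes, standard errors and p-values hold the authors' own comparisons and were not used.

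In 155 columns the steps between values gave whole reads, and in 25 the factor lay near 1. All 3127002 values came within 0.01 read of a whole number. Library totals were 14110424 to 26676607 reads, which limits the precision of low genes such as Bcl2a1b. No replicates were copies of each other (chi-square per degree of freedom 4.83 to 31.0 in 36 pairs).

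Genes with at least 10 normalized counts in at least 3 libraries of a comparison were tested with limma 3.58.1 (trend, two-sided) on log2(normalized count + 1) in R 4.3.3, with Benjamini-Hochberg adjustment over all tested genes and a threshold of 0.05. Fold changes on this scale understate those of low genes. There were 20 comparisons of groups and 5 interactions of treatment with time. edgeR 4.0.16 and DESeq2 1.42.0 on the recovered reads, TMM scaling, no filter, a pseudocount of 5, a fit over all 36 libraries, the replicate number as a block and leaving out each library were the alternatives. Summing the Bcl2a1 copies was added after the data were seen. The fits were tested on simulated data. Levels use median-of-ratios factors over all libraries, and levels per kb use exon lengths of GENCODE vM39.

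Groups share replicate numbers in the labels. The numbers were taken to pair libraries where all 3 same-numbered pairs deviated together (correlation over 0.1). This held for LPS+DMF and LPS+CBD against LPS at both times, LPS+MMF against LPS and LPS+DMF against LPS+MMF at 24 h, DMSO against EtOH at both times, and 24 h against 4 h in LPS and LPS+MMF.

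The text names all 10 genes, up to 3 called genes per list and comparison with the largest change and a mean of at least 50, the 2 most alike genes of each, and the Bcl2a1 copies. Some genes that this rule gave are not reported here. The genes and lists were chosen with earlier results of these data known. The markers Sall1, Snap25, Syt1 and Aqp4 were not among the genes listed in the deposited tables, so no values are given for them.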

Additional observations from a re-analysis of the deposited data

Results flagged for a closer look

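In 11 cases the effect of a treatment on 1 of the 10 genes differed between 24 h and 4 h by the interaction test in limma, with Benjamini-Hochberg adjustment. The values are the effect at 24 h minus that at 4 h on the log2 scale. For DMF against LPS the difference was 0.78 for Bcl2l11 (adjusted p = 0.000498) and 1.56 for Bcl2a1b (adjusted p = 0.00711). For CBD against LPS it was 0.71 for Mdm2 (adjusted p = 0.000664), -0.41 for Ccng1 (adjusted p = 0.0112), 0.40 for Trp53inp1 (adjusted p = 0.0432), -0.73 for Bcl2l11 (adjusted p = 0.000441) and 1.43 for Bcl2a1b (adjusted p = 0.00363). For LPS against DMSO it was 0.62 for Phlda3 (adjusted p = 0.0329) and -0.59 for Bcl2l11 (adjusted p = 0.0111). For LPS against EtOH it was 0.72 for Trp53inp1 (adjusted p = 0.00717) and 0.83 for Phlda3 (adjusted p = 0.00815). Of all genes, 16.3% passed this test for DMF, 32.0% for CBD, 9.46% for LPS against DMSO and 9.0% against EtOH. Without 1 library, the Trp53inp1 difference with CBD was lost in 10 of 12 refits. That of Phlda3 against DMSO was lost in 9 of 12. The change of the LPS effect did not pass for Bcl2l11 against EtOH or for Trp53inp1 against DMSO. The DMF, CBD and LPS interactions share the LPS libraries.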

How the results depend on the processing

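Over the values of the 10 genes, 3256 results of the alternatives kept direction and side of the threshold, 61 gained a call, 98 lost one and none reversed. Of 80 called results 54 kept their call without any 1 library and 26 lost it at least once, while 20 of 170 uncalled results gained one. The number of the 10 genes called for LPS+DMF against LPS+MMF at 4 h was 1 with no filter and 1 with TMM scaling (2 in the report). For LPS against EtOH at 24 h it was 0 in the fit over 36 libraries. For LPS+MMF against LPS at 24 h it was 1 by DESeq2. With the replicate block it was 2 for LPS+MMF against LPS at 24 h, 4 for DMSO against EtOH at 4 h and 8 for the interaction of CBD with time (1.78%, 7.65% and 43.5% of all genes), and where the numbers pair the libraries the block changed no call of the 10 genes beyond those printed in the report. Elsewhere it added Bcl2l11 (-0.23, adjusted p = 0.0407) in DMSO and Pmaip1 (0.24, 0.0146) in EtOH for 24 h against 4 h. The cause was not tested.

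Without 1 library the number called ranged from 1 to 3 for LPS against DMSO at 4 h and at 24 h, 1 to 5 and 0 to 2 for LPS against EtOH, 1 to 3 and 3 to 6 for DMF against LPS, 6 to 8 for CBD against LPS at 24 h, and 1 to 2 and 4 to 5 for DMF against MMF. For 24 h against 4 h it ranged from 5 to 7 in DMSO, 6 to 8 in EtOH, 5 to 7 in LPS, 4 to 5 in LPS+DMF, 3 to 4 in LPS+MMF and 6 to 8 in LPS+CBD. For the interactions it ranged from 2 to 3 (DMF), 4 to 5 (CBD), 1 to 3 (LPS against DMSO) and 2 to 3 (LPS against EtOH).

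Over all genes, calls moved by over 1.5 times for LPS+MMF against LPS at 4 h (14, or 53 by DESeq2 and 179 with the replicate block) and at 24 h (0, or 3 with no filter, 17 by DESeq2 and 206 with the block), for LPS+CBD against LPS at 4 h (1, or 2 with no filter, 3 by DESeq2 and 4 with the block), for DMSO against EtOH at 4 h (0, or 87 by DESeq2 and 876 with the block) and at 24 h (1, or 3 and 20), for LPS+DMF against LPS at 24 h (2926, or 4566 with the block), for LPS+DMF against LPS+MMF with the block (949 to 1740 at 4 h and 2508 to 4639 at 24 h) and for the interaction of MMF with time (0, or 5 with the block).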
